A study of Mus musculus with 18 samples.

Results

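Testis of mice labelled as knockout for Pcgf6 (PCGF6 KO) was compared with testis of wild type mice (WT), with 3 poly-A RNA libraries per genotype. These are 6 of the 18 libraries of a study that also profiled liver and brain. They were taken by the tissue and genotype in their labels, and all 52636 annotated genes were considered, of which 22341 had enough reads to be tested. All mice were C57BL/6 males aged 8 weeks, an age at which the seminiferous tubules hold every stage of sperm formation. The labels do not describe the knockout allele or the cells in which it was made. They also do not say whether the 3 libraries of a genotype came from separate animals, so p values below measure only the spread between these libraries.

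Pcgf6 is a subunit of PRC1.6, a variant of the polycomb repressive complex PRC1, which adds ubiquitin to histone H2A. In PRC1.6 the DNA-binding partners Mga with Max, which recognise E-box motifs, and E2f6 with Tfdp1, which recognise E2F motifs, bring the complex to promoters. The complex is known above all for keeping meiosis and germ cell genes silent in embryonic stem cells and in somatic cells. Testis is the organ in which those genes are in use, so the comparison asks how expression differs there between mice labelled as knockout for a subunit of their repressor and WT mice.

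A single gene of the 22341 tested passed the threshold in testis. It was Gm5815, annotated as a processed pseudogene, and it fell in the KO. Levels are in FPKM, a read count divided by the length of the gene and by a size factor for the library. The test was limma on log2(FPKM + 0.1), run where 3 or more libraries held 10 or more reads of a gene, and a gene was called at a Benjamini-Hochberg adjusted p under 0.05. The called share was 0.00448% of tested genes, with 0 genes higher and 1 lower. At an unadjusted p under 0.05 there were 922 genes (4.13%), of which 548 were higher (2.45%) and 374 lower (1.67%) in the KO.

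WT library 3 stood apart from the other 5, so results are given with and without it. Its median correlation with the others was 0.971 on the log2 scale, against 0.985 to 0.987 for the rest. It was over 2-fold below all other libraries at 301 of 16472 genes with a mean of at least 1 FPKM and over 2-fold above them at 79. The other libraries had 26 to 54 and 4 to 21 such genes. Depth was 20098777 to 23335596 reads per library, lowest in WT 3, and mitochondrial transcripts made up 1.04% of reads in WT 3 and 0.772 to 0.894% in the others. Without WT 3 limma again called 1 gene, Gm5815, of 22023 (0.00454%), and 1089 genes (4.94%) had an unadjusted p under 0.05, 651 higher (2.96%) and 438 lower (1.99%).

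The targeted gene was present at a reduced level in all 3 KO libraries. Pcgf6 (ENSMUSG00000025050, mm10 chromosome 19, 47033619 to 47050845, minus strand) had 10.6, 9.58 and 9.58 FPKM in KO testis, against 20.4, 19.9 and 22.3 FPKM in WT testis. The genotypes did not overlap, and each KO library still held 496 to 506 reads of the gene, against 1031 to 1141 in the WT libraries. The KO mean was 47.6% of the WT mean, and 49.2% without WT 3. In limma the log2 fold change was -1.06 (SE 0.09), with a 95% interval of -1.28 to -0.85. The adjusted p was 0.0638, and 0.0823 without WT 3, so Pcgf6 itself was not called. It was called in several alternative fits, such as limma voom (adjusted p = 0.0222). The files give 1 value per gene, so which exons the remaining KO reads cover was not analysed here.

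**Figure D1:**
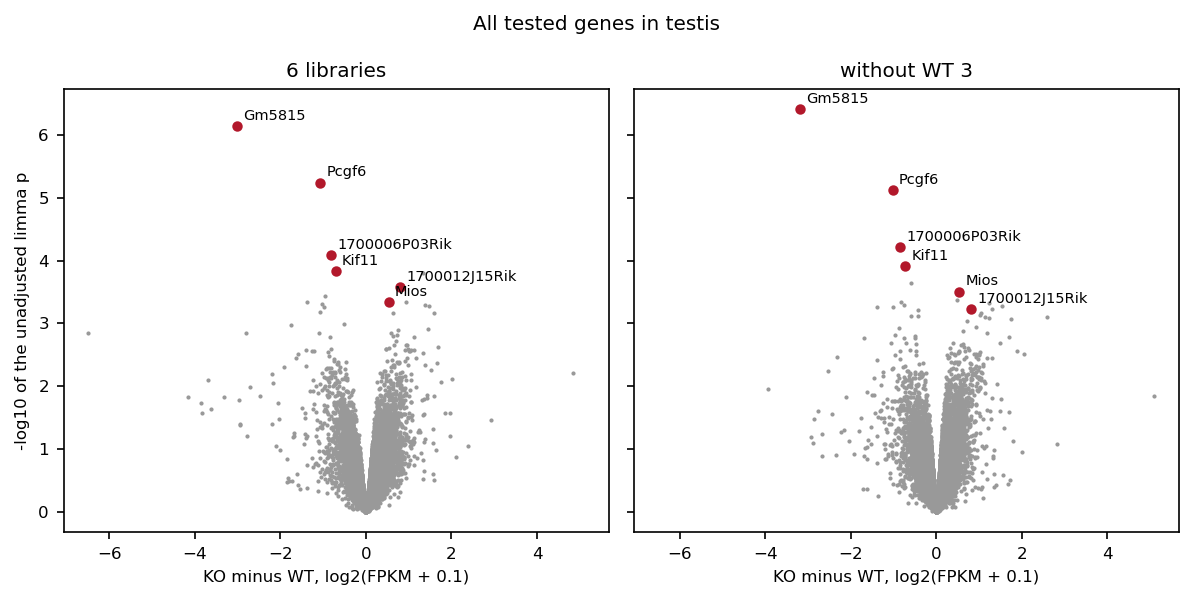
Each point is a tested gene; the x axis is the KO minus WT difference in log2(FPKM + 0.1) and the y axis -log10 of the unadjusted limma p, with all 6 libraries in one panel and without WT 3 in the other. Gm5815 and Pcgf6 have the lowest p values among lower genes in both fits, at log2 fold changes of -3.02 and -1.06 with 6 libraries.

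Gm5815 (ENSMUSG00000046952) lies on mm10 chromosome 17 from 58593659 to 58594843 on the plus strand. Processed pseudogenes are copies of a messenger RNA inserted back into the genome. Gm5815 had 1.08, 1.11 and 0.855 FPKM in KO testis, against 9.62, 10.5 and 6.87 FPKM in WT testis, from 25 to 33 reads per KO library and 199 to 321 per WT library. All KO libraries were low and all WT libraries high, with WT 3 the lowest of its group. The KO mean was 11.3% of the WT mean, a log2 fold change of -3.02 (SE 0.19, adjusted p = 0.0161 in limma). Without WT 3 it was -3.20 (adjusted p = 0.00853 in limma).

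The size of the Gm5815 difference varied little, but the call needed most of the libraries. Without WT 1, KO 1, KO 2 or KO 3 the log2 fold change was -2.96, -3.06, -3.08 or -2.91, and the adjusted limma p was 0.122, 0.226, 0.185 or 0.0626. In brain Gm5815 had 0.101, 0.310 and 0.157 FPKM in KO brain, against 0.699, 0.715 and 1.05 FPKM in WT brain. The genotypes were separate there too, at a log2 fold change of -1.71, and the gene was not called (adjusted p = 0.245 in limma). In liver it had 1 read in the KO libraries together and 11 in WT.

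Nearly all of the Gm5815 transcript is shared with another gene. In the reference annotation its transcript of 1227 bases aligned over its whole length to a transcript of Glcci1, with 98.9% identity, 13 mismatches and 0 gaps. It also matched Gm45062 over 1182 bases with 98.9% identity. Glcci1 is a protein-coding gene on chromosome 6 from 8509600 to 8597548. How the authors' counting treated reads that match several of them is not given in the sources used here, so the split of reads is uncertain. Glcci1 had 0.660, 0.528 and 0.617 FPKM in KO testis, against 0.552, 0.546 and 0.264 FPKM in WT testis. The groups overlapped, with WT 3 the lowest library, and the log2 fold change was 0.39 with an unadjusted p of 0.182.

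**Figure D2:**
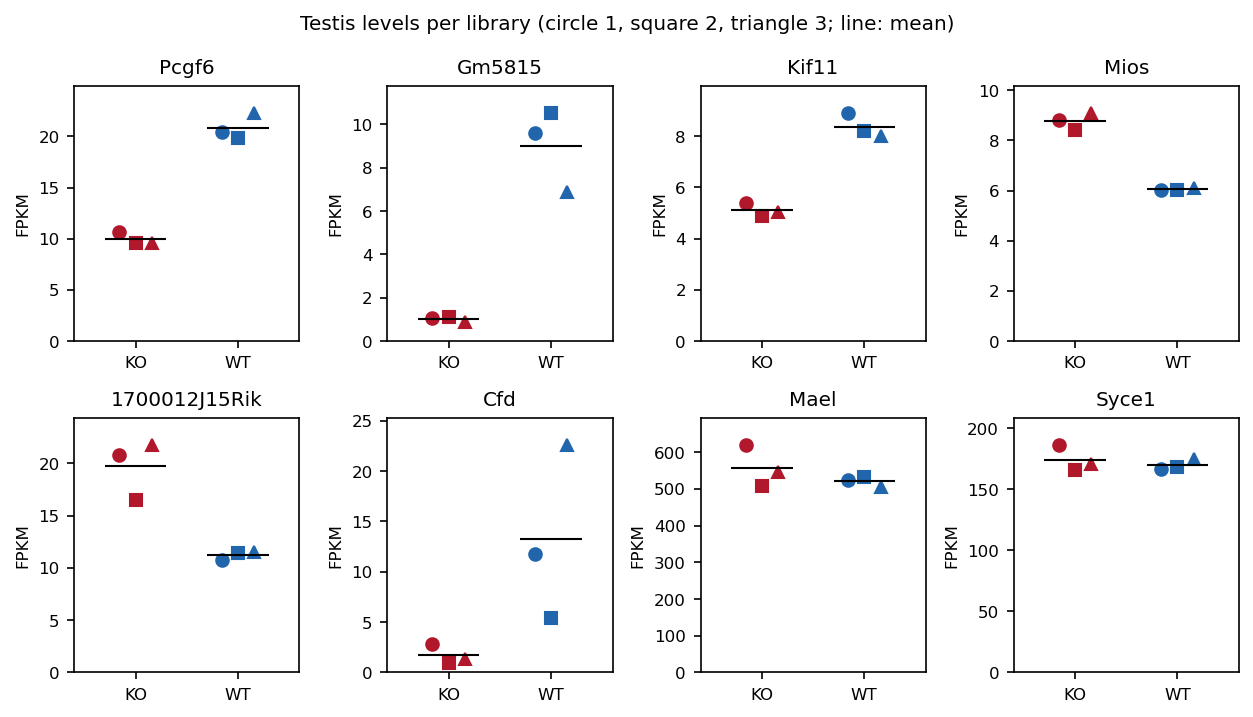
FPKM (y axis) of 8 genes in each testis library, KO left of WT; a circle is library 1, a square 2 and a triangle 3, and the line is the mean of 3. The genotypes are separate for Pcgf6, Gm5815, Kif11, Mios, 1700012J15Rik and Cfd, and overlap for the germline genes Mael and Syce1.

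For most genes expressed in testis the data set limits on the size of the KO effect. Of 16115 tested genes with a mean of at least 1 FPKM, 14829 (92.0%) had a 95% interval that lay within a log2 change of 1 in either direction, and 6 had one that lay beyond it. Without WT 3 the share was 94.4% of 16072 genes. The median half-width of the interval was 0.34 for these genes, and 0.28 without WT 3. Over all tested genes the median log2 fold change was 0.03 and 56.5% were above 0, and without WT 3 these were 0.01 and 54.2%. The centre depends on the scaling: with the library total as the scale in place of the deposited one, the median of all tested genes was -0.04 and 40.7% were above 0, or -0.02 and 44.8% without WT 3. Values of a list on that scale, given below as on the library total, are to be read beside these. Gene lists below are described by counts and medians beside these values.

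The other subunits of PRC1.6 had no unadjusted p under 0.05 in either fit. Of 14 tested subunits, Pcgf6 included, 4 had a log2 fold change above 0 and 10 below, with a median of -0.05, or -0.01 without WT 3 and -0.13 on the library total. The scaffold subunit L3mbtl2 had 7.39, 7.92 and 6.86 FPKM in KO testis, against 7.14, 8.42 and 7.57 FPKM in WT testis. Mga had 4.68, 4.80 and 4.31 FPKM in the KO, against 4.57, 4.20 and 2.83 FPKM in WT, with WT 3 the lowest. Both overlapped between genotypes. E2f6 had 1.33, 1.31 and 1.10 FPKM in the KO, against 1.40, 1.91 and 1.55 FPKM in WT. Every KO library was below every WT library of E2f6, with a log2 fold change of -0.35 and an unadjusted p of 0.0784. Max, the partner of Mga, had 4.33, 4.25 and 4.16 FPKM in the KO, against 4.64, 4.64 and 6.19 FPKM in WT, also without overlap (unadjusted p = 0.101). The catalytic subunit Rnf2 overlapped, at 10.1, 11.4 and 11.8 FPKM in the KO, against 11.5, 12.04 and 15.0 FPKM in WT.

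Lists of related chromatin complexes held 1 gene with an unadjusted p under 0.05. The deacetylase Hdac1, the most abundant PRC1.6 subunit per length, had 57.3, 50.1 and 51.6 FPKM in KO testis, against 48.7, 49.1 and 42.7 FPKM in WT testis (unadjusted p = 0.101). Of 17 PCGF paralogs and other PRC1 subunits, such as Bmi1 and Phc1, 8 were above 0, with a median of -0.01, or 7 and -0.09 on the library total. Subunits of PRC2, the polycomb complex that methylates histone H3, had 4 of 11 above 0 and a median of -0.04, or 1 and -0.12 on the library total. Without WT 3 the PCGF and PRC1 list had 9 above 0 and a median of 0.002, and PRC2 5 and -0.03. In neither list did a gene have an unadjusted p under 0.05. Genes of DNA methylation and H3K9 methylation had 9 of 18 above 0, or 6 on the library total and 6 without WT 3. Suv39h1, an H3K9 methyltransferase, had 1.73, 2.13 and 1.70 FPKM in KO testis, against 2.24, 2.33 and 2.70 FPKM in WT testis. Its groups were separate (log2 fold change -0.38, unadjusted p = 0.0399). Like other list members given below for an unadjusted p under 0.05, it was picked after its values were seen.

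Germline genes known as targets of PRC1.6 did not pass the test in testis. All 30 genes of that list were tested. Of these, 14 had a log2 fold change above 0 and 16 below, the median was -0.01, and 0 of 30 were called or had an unadjusted p under 0.05 in limma. Without WT 3, 16 were above 0 and the median was 0.02, and with the library total as the scale 6 were above 0 and it was -0.09. On the library total without WT 3, 13 were above 0 and the median was -0.01. Log2 fold changes ran from -0.36 at Zcwpw1, a histone methylation reader of meiotic cells, to 0.18 at Rbm46, an RNA-binding protein needed for meiosis. Over the 30 genes the 95% intervals reached from -0.74 to 0.45 at most. Mean levels ran from 3.08 to 812 FPKM, with a median of 30.6 FPKM.

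In the somatic tissues members of the same list were called, 5 in brain and 3 in liver. The called shares over all genes were 0.0837% of 17922 in brain and 0.0212% of 14124 in liver. In brain 16 of 19 tested members were above 0 with a median of 0.68, and in liver 9 of 11 with a median of 0.93. The rest of the 30 had too few reads there. A member nearly absent in WT was tested only where the KO libraries held enough reads. Mael and Syce1, with 0 reads in WT liver, are examples. For such members a value above 0 was fixed by the filter, so these counts do not describe the whole list. Over all genes tested there, 53.3% were above 0 in brain and 50.2% in liver. The difference in KO effect between tissues was tested for each gene as an interaction in limma, which took all libraries as independent. Any tie between libraries of the same number in different organs was not modelled. The difference was called for 10 genes between testis and brain (0.0626% of 15962) and for 6 between testis and liver (0.0457% of 13133), 13 genes in all. A negative difference means a lower KO effect in testis. It was negative for 9 of the 10 genes against brain and for all 6 against liver. A gene nearly absent in WT brain or liver passed the filter there only through KO reads, which fixed a positive KO effect in that tissue.

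Mael acts in the piRNA pathway, which silences transposons in male germ cells. It had 619.9, 509 and 546 FPKM in KO testis, against 525, 533 and 506 FPKM in WT testis, with overlapping groups and a log2 fold change of 0.09 (95% interval -0.17 to 0.36). In brain it had 10.3, 6.11 and 10.5 FPKM in KO brain, against 0.0624, 0 and 0.211 FPKM in WT brain. In liver it had 18.8, 8.82 and 17.5 FPKM in KO liver, against 0, 0 and 0 FPKM in WT liver. The KO effect in testis minus that in brain was -5.59 (SE 0.46, adjusted p = 0.000107 in limma), and minus that in liver -7.07 (SE 0.30, adjusted p = 1.90e-07). All KO libraries of brain and liver were far above their WT libraries, while in testis the level was high in both genotypes. WT liver was at 0, and both sizes depend on the pseudocount: with a pseudocount of 1 they were -3.07 and -3.84, still called.

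Syce1, a protein of the central element of the synaptonemal complex, had 187, 166 and 171 FPKM in KO testis, against 167, 168 and 175 FPKM in WT testis. Its groups overlapped, at a log2 fold change of 0.04 (95% interval -0.17 to 0.24). In brain it had 1.10, 1.18 and 1.53 FPKM in the KO, against 0.222, 0.101 and 0.1003 FPKM in WT. The difference was -2.49 against brain (adjusted p = 0.000467 in limma) and -4.20 against liver (adjusted p = 5.90e-08), where WT was again at 0. Slc25a31, the ADP/ATP carrier of germ cell mitochondria, had 28.2, 29.9 and 29.3 FPKM in KO testis, against 28.4, 27.7 and 34.6 FPKM in WT testis. The groups overlapped, with WT 3 the highest. Its difference was -3.72 against brain and -4.85 against liver (adjusted p = 7.50e-05 and 0.000263 in limma). With a pseudocount of 1 the differences of Syce1 were -0.95 and -1.44 and those of Slc25a31 -1.35 and -2.40, all still called. Mael, Syce1 and Slc25a31 were called in both differences.

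Further germ cell genes were called in 1 of the differences. Henmt1, which methylates piRNA ends, had 10.3, 9.03 and 8.49 FPKM in KO testis, against 8.85, 8.58 and 9.90 FPKM in WT testis, with overlap, and its difference from brain was -1.98 (adjusted p = 9.08e-05 in limma), or -0.87 with a pseudocount of 1. Rbm46 had 21.0, 20.6 and 21.2 FPKM in the KO, against 20.2, 19.9 and 15.7 FPKM in WT, where WT 3 was the lowest. Every KO library was above every WT library (log2 fold change 0.18, or 0.06 without WT 3), and the difference from brain was -1.64 (adjusted p = 0.00763 in limma). With a pseudocount of 1 that was -0.51 and not called (adjusted p = 0.895 in limma). Henmt1 and Rbm46 were not tested against liver. The RNA helicase gene Ddx4 had 189, 164 and 172 FPKM in KO testis, against 169.6, 159 and 148 FPKM in WT testis. The meiotic gene Tex11 had 2.39, 3.49 and 2.99 FPKM in the KO, against 3.16, 2.98 and 3.49 FPKM in WT. Both overlapped, and the differences from liver were -2.58 for Ddx4 and -2.01 for Tex11 (adjusted p = 0.00208 and 0.00666 in limma). With a pseudocount of 1 they were -0.57 and -0.44 and neither was called (adjusted p = 0.545 and 0.866 in limma). Tex11 was not called on the library total either (adjusted p = 0.0620). Against brain Ddx4 had -2.21 (adjusted p = 0.0889 in limma), and Tex11 was not tested. In liver Ddx4 had 81 reads in the KO libraries together and 2 in WT, and Tex11 had 40 and 0. Both thus passed the read filter in liver only through the KO libraries, which fixed the sign of the KO effect there.

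Among X-linked genes, 4 had a called difference from brain. Xlr4b had 0.794, 0.869 and 0.760 FPKM in KO testis, against 0.715, 0.591 and 0.895 FPKM in WT testis, and Xlr4c had 1.46, 1.09 and 1.22 FPKM in the KO, against 1.10, 1.18 and 1.36 FPKM in WT. Both overlapped between genotypes, and their differences from brain were -4.24 and -3.97 (adjusted p = 3.36e-05 and 9.10e-06 in limma). With a pseudocount of 1 they were -1.91 and -1.35, still called. Both belong to a family of near-identical copies, so reads may be split between members. Gm4779 had 8.99, 8.88 and 9.36 FPKM in KO testis, against 7.90, 7.75 and 7.84 FPKM in WT testis, without overlap (log2 fold change 0.21, unadjusted p = 0.0395), and 8030474K03Rik had 5.60, 5.77 and 5.04 FPKM in the KO, against 5.21, 5.99 and 6.35 FPKM in WT, with overlap. Their differences from brain were -4.69 and -4.99 (adjusted p = 2.36e-05 for each in limma), or -2.79 and -2.21 with a pseudocount of 1, still called. In brain Xlr4b, Xlr4c and 8030474K03Rik had 640, 285 and 565 reads in the KO libraries together, against 13, 1 and 4 in WT. These genes thus passed the read filter in brain only through the KO libraries, which fixed the sign of the KO effect there. Another pseudocount does not remove that limit. Gm4779 had 1611 and 36 reads. The RefSeq promoters of Gm4779 and 8030474K03Rik overlap on opposite strands.

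The remaining differences were C1qtnf4 against liver and Rps4l against brain. C1qtnf4, a secreted protein of the C1q and TNF family, had 172, 157 and 168 FPKM in KO testis, against 159.7, 159 and 218 FPKM in WT testis, with WT 3 the highest. Its difference from liver was -2.83 (adjusted p = 0.0195 in limma), -1.50 with a pseudocount of 1, still called, and -2.68 without testis WT 3, which was not called (adjusted p = 0.0984). Rps4l, annotated as a transcribed processed pseudogene, had 71.6, 73.3 and 74.8 FPKM in KO testis, against 69.3, 69.5 and 119 FPKM in WT testis, with WT 3 alone high. In brain it had 1.87, 1.48 and 1.73 FPKM in the KO, against 10.8, 13.5 and 9.94 FPKM in WT. Its difference was positive, 2.49 (adjusted p = 0.00129 in limma), or 2.02 with a pseudocount of 1, still called. Of 15 genes called in liver or brain, 11 were tested in testis and 0 were called there, with 2 at an unadjusted p under 0.05, Gm4779 and Ide. Klk6, Gabra2, Mir378b and Obox3-ps7 had too few testis reads to be tested.

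**Figure D3:**
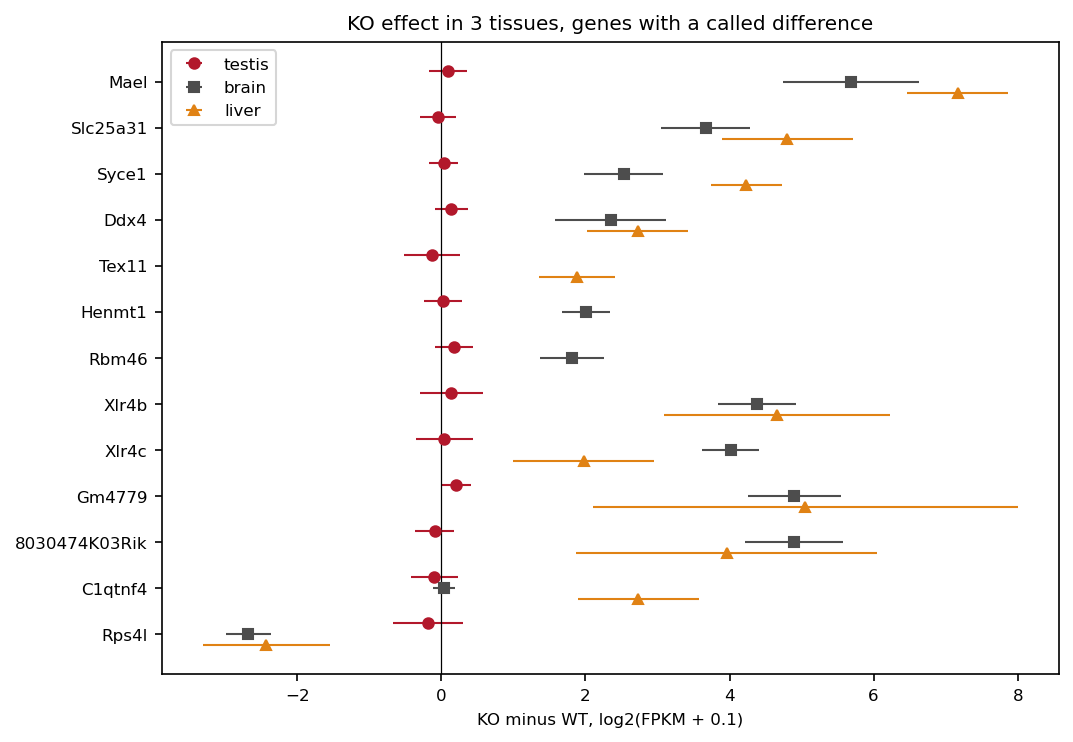
KO minus WT differences in log2(FPKM + 0.1) on the x axis, with 95% intervals from limma, in testis, brain and liver for the 13 genes whose KO effect in testis differed from that in brain or liver. The testis values run from -0.18 at Rps4l to 0.21 at Gm4779.

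The promoters of these genes are shown because the DNA-binding partners of PRC1.6 recognise E-box and E2F motifs. RefSeq promoters (GRCm38.p6, 250 bases before to 50 after the start site) matched 10 of the 13 genes. The E-box CACGTG and the E2F-type motif TCCCGC, each searched on both strands, were both present in 4 of the 10, namely Mael, Slc25a31, Rbm46 and Ddx4, and the other 6 held neither. The RefSeq start of Henmt1, among those 6, lies 684 bases from its start in the deposited annotation, so the window may miss its promoter. Of all 32851 RefSeq promoters of 300 bases, 7.15% held CACGTG, 19.98% TCCCGC and 1.99% both. Below, capitals mark these motifs on either strand (GCGGGA is TCCCGC on the other strand). Syce1 is shown beside 3 genes with both motifs because it was called in both tissue differences and held neither in this window. Mael is at chr1:166238695-166238994, Rbm46 at chr3:82876434-82876733 and Syce1 at chr7:140787805-140788104, all on the minus strand. Slc25a31 is at chr3:40708621-40708920 on the plus strand.
Mael: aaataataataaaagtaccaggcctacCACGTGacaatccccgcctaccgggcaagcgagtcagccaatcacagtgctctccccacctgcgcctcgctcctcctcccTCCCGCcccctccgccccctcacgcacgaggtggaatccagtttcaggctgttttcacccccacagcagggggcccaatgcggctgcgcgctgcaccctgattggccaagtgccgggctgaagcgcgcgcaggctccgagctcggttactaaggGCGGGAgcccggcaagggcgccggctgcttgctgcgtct
Slc25a31: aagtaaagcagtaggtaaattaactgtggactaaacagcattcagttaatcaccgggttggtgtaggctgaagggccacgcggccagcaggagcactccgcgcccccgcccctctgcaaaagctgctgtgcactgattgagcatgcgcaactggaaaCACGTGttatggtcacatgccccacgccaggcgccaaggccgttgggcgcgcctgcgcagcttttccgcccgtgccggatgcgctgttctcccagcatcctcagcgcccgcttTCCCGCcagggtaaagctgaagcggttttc
Rbm46: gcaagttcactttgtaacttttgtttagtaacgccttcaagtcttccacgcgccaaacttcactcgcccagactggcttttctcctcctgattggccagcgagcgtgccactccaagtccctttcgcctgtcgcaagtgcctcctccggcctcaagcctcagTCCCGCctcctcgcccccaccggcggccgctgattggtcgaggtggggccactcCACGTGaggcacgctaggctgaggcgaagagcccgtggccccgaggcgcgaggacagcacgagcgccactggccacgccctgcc
Syce1: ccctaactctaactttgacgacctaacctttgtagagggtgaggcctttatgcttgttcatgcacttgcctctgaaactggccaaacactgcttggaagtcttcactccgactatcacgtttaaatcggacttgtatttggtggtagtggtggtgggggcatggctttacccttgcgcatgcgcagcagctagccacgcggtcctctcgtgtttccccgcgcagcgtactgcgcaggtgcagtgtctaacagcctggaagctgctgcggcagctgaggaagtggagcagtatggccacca

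No marker of the spermatogonial stages was called. Bulk RNA cannot tell fewer cells of a type from less RNA per cell, which holds for every cell type list here. Of 14 tested genes of undifferentiated spermatogonia, which include the stem cells, 5 were above 0 and the median was -0.09, or -0.06 without WT 3. On the library total 1 was above 0 and the median was -0.17, or 1 and -0.09 without WT 3. Id4, a transcriptional regulator of the stem cells, had 14.4, 12.1 and 12.7 FPKM in KO testis, against 12.5, 12.6 and 18.7 FPKM in WT testis, and Etv5, a transcription factor, had 6.74, 7.63 and 6.31 FPKM in the KO, against 7.01, 6.68 and 6.91 FPKM in WT. Both overlapped. Utf1, a chromatin protein of undifferentiated cells, had 0.468, 0.777 and 0.429 FPKM in the KO, against 0.949, 1.01 and 1.03 FPKM in WT. Its groups were separate (log2 fold change -0.78, unadjusted p = 0.00983).

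Differentiating spermatogonia had 12 tested genes, 3 of them above 0, and a median of -0.19, or -0.13 without WT 3 and -0.28 on the library total. Stra8, which prepares germ cells for meiosis in response to retinoic acid, had 6.27, 7.60 and 5.69 FPKM in KO testis, against 7.57, 8.57 and 10.9 FPKM in WT testis. Its groups overlapped slightly, with WT 3 the highest (log2 fold change -0.45, unadjusted p = 0.0289, and 0.0630 without WT 3). Dmrtb1, which controls the change from mitosis to meiosis, had 326, 272 and 284 FPKM in the KO, against 276, 274 and 227 FPKM in WT, and Uchl1, a ubiquitin hydrolase of spermatogonia, had 20.9, 26.7 and 22.2 FPKM in the KO, against 24.1, 25.5 and 31.8 FPKM in WT. Both overlapped.

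No meiotic gene was called, and with 6 libraries the direction of the lists depended on the scaling. Of 34 genes of synapsis and recombination, 18 were above 0 with a median of 0.01, against 14 and -0.02 without WT 3 and 7 and -0.07 with the library total as the scale. Summed over the list they had 2492, 2483 and 2471 CPM in KO testis, against 2607, 2538 and 2595 CPM in WT testis (CPM, reads scaled to the library total), without overlap. Syce3, a further central element protein, had 81.7, 71.3 and 76.0 FPKM in KO testis, against 77.6, 63.2 and 77.1 FPKM in WT testis, with overlap. Pachytene spermatocyte genes had 13 of 18 above 0 and a median of 0.06, or -0.02 with the library total as the scale. Without WT 3 there were 13 with a median of 0.08, or 13 and 0.04 on the library total. Ldhc, the lactate dehydrogenase of germ cells, had 1841, 1567 and 1641 FPKM in the KO, against 1626, 1587 and 1746 FPKM in WT, and also overlapped.

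In the piRNA pathway 15 of 22 genes were above 0 with a median of 0.05, or -0.03 with the library total as the scale. Without WT 3 there were 12 with a median of 0.01. Tdrd7, a Tudor protein of germ cell RNA granules, had 68.6, 63.8 and 66.4 FPKM in KO testis, against 60.3, 58.9 and 52.2 FPKM in WT testis. Its groups were separate (log2 fold change 0.22, unadjusted p = 0.0418). Germ cell RNA-binding proteins had 14 of 18 above 0 and a median of 0.02, or -0.06 with the library total as the scale. Transcription and chromatin regulators of spermatogenesis had 12 of 20 above 0 and a median of 0.06, or -0.02 on that scale. Without WT 3 the RNA-binding list had 11 above 0 and a median of 0.03, and the regulators 10 and -0.001. The ciliary and spermatid regulator Rfx2 had 121, 116 and 119 FPKM in the KO, against 109.9, 112 and 85.4 FPKM in WT, without overlap (unadjusted p = 0.103).

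Spermatid genes were mostly above 0 by small amounts, and none was called or had an unadjusted p under 0.05. All 24 round spermatid genes were above 0 with a median of 0.13. Without WT 3 there were 20 with a median of 0.10, and with the library total as the scale 21 with 0.05. Zpbp2, a protein of the acrosome, had 169, 137 and 145 FPKM in KO testis, against 139, 134 and 126 FPKM in WT testis, with overlap. Elongating spermatid genes had 20 of 22 above 0 and a median of 0.16, but 14 and 0.02 without WT 3, 17 and 0.08 on the library total, and 6 and -0.02 with the library total as the scale and without WT 3. Prm1, the protamine that packs sperm DNA, had 9817, 7759 and 6631 FPKM in the KO, against 7429, 8018 and 5938 FPKM in WT, and overlapped.

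Later sperm structures gave similar values. Flagellum and cilia genes had 18 of 20 above 0 and a median of 0.16, or 0.09 without WT 3 and 16 and 0.08 on the library total. Ropn1l, a flagellum protein, had 917, 833 and 909.7 FPKM in KO testis, against 846, 858 and 789.6 FPKM in WT testis. Glycolytic isozymes of testis had 8 of 8 above 0 and a median of 0.16, or 7 and 0.06 without WT 3 and 6 and 0.08 on the library total. Gapdhs, the sperm form of glyceraldehyde phosphate dehydrogenase, had 801, 650.4 and 634 FPKM in the KO, against 677, 682 and 497 FPKM in WT. Ropn1l and Gapdhs overlapped between genotypes. Testis histones had 5 of 9 above 0, or 4 on the library total. Hist1h2ba, a germ cell histone H2B, had 8.05, 6.42 and 8.02 FPKM in the KO, against 5.96, 6.17 and 4.05 FPKM in WT, without overlap (log2 fold change 0.48, unadjusted p = 0.0330).

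A broader set held 1472 genes with a mean of at least 10 FPKM in testis and at least 100-fold higher levels than in the other tissues. Of these, 1124 were above 0 with a median of 0.10, and 0 were called. The share with an unadjusted p under 0.05 was 3.53%, beside 4.13% of all genes. Without WT 3, 893 of 1470 were above 0 with a median of 0.03. Multicopy sex chromosome genes of germ cells had 7 of 14 above 0 and a median of -0.02, or 4 and -0.09 on the library total, and reads of such copies may be split between members. Without WT 3 this list had 8 above 0 and a median of 0.02. Imprinted genes had 18 of 24 above 0 and a median of 0.09, or 16 and 0.04 without WT 3. On the library total there were 13 and 0.03, or 12 without WT 3.

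Somatic cell lists depended on WT 3 in the size of their medians, and some also in direction. Sertoli cells, which support the germ cells, had 23 of 26 genes below 0 and a median of -0.18, or 20 and -0.06 without WT 3. On the library total 25 were below 0 with a median of -0.26, or 22 and -0.09 without WT 3. Summed over the list, Sertoli genes had 2416, 3155 and 2576 CPM in KO testis, against 2838, 2911 and 4176 CPM in WT testis, with WT 3 the highest. Defb36, a defensin of the list, had 56.2, 49.0 and 47.1 FPKM in the KO, against 64.0, 66.5 and 100.1 FPKM in WT. Its groups were separate (log2 fold change -0.57, unadjusted p = 0.0143, and -0.37 with 0.00598 without WT 3). The clusterin gene Clu overlapped, at 245, 320.2 and 254 FPKM in the KO, against 273, 281 and 371 FPKM in WT.

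Leydig cells, which make testosterone, had 6 of 15 genes above 0 and a median of -0.07, or 10 and 0.02 without WT 3. On the library total these cells had 5 and -0.15, or 7 and -0.01 without WT 3. Their hormone gene Insl3 had 315, 458 and 407 FPKM in KO testis, against 366, 469 and 566 FPKM in WT testis, with overlap. Peritubular myoid cells had a median of -0.15 over 7 genes, or 0.02 without WT 3, and endothelial cells -0.07 over 8, or -0.03. On the library total the medians of these lists were -0.23 and -0.14, or -0.02 and -0.06 without WT 3. Stromal fibroblasts had 2 of 9 above 0 and a median of -0.33, but 7 and 0.16 without WT 3. Their summed level was 174, 207 and 251 CPM in KO testis, against 187, 199 and 594 CPM in WT testis, so WT 3 alone was high. The collagen gene Col1a1 had 3.77, 3.97 and 5.42 FPKM in the KO, against 3.38, 4.04 and 14.7 FPKM in WT.

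Blood and immune genes followed WT 3 as well. Red blood cell genes had a median of -1.004 over 4 genes, or -0.18 without WT 3, and the globin gene Hbb-bs had 10.98, 16.5 and 8.45 FPKM in KO testis, against 14.7, 12.9 and 75.7 FPKM in WT testis. Macrophage genes had 8 of 13 above 0 and a median of 0.02, but 11 and 0.23 without WT 3, and 4 and -0.06 with the library total as the scale. The complement gene C1qa had 10.9, 11.4 and 12.1 FPKM in the KO, against 10.2, 8.17 and 22.8 FPKM in WT, so its genotypes were separate when WT 3 was left out (unadjusted p = 0.0236). Interferon response genes had 6 of 15 above 0 and a median of -0.02, but 12 of 13 and 0.24 without WT 3. Bst2, which tethers budding viruses, had 5.43, 6.29 and 5.93 FPKM in the KO, against 4.79, 4.47 and 10.1 FPKM in WT, again with WT 3 high.

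Genes of the epididymis, the duct in which sperm mature, were uneven among the WT libraries. Crisp1, a secreted epididymal protein, had 0.0312, 0.140 and 0.143 FPKM in KO testis, against 2.09, 19.2 and 133 FPKM in WT testis. Each WT library was above every KO library, and the WT values themselves differed widely, highest in WT 3 (log2 fold change -6.49, SE 1.30, unadjusted p = 0.00142). With 6 libraries Crisp1 passed the read filter only through the 3 WT libraries, so its direction was fixed by the filter. Its p value carries the same limit. Without WT 3 it had too few reads to be tested. Cd52, named after its values were seen, had 0.409, 0.770 and 0.717 FPKM in the KO, against 1.86, 8.63 and 121 FPKM in WT, with the WT libraries in the same order. Of 16 epididymis genes 4 were tested, Crisp1 among them, with 4 below 0 and a median of -0.15. The summed list had 186, 168 and 161 CPM in KO testis, against 194, 231 and 470.3 CPM in WT testis, and 1 member was at 0 in all 6 libraries. The part of such tissue in other results was not tested.

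Adipocyte genes were lower in the KO libraries for 4 of 9 members, without overlap with or without WT 3 and without a call; the shares over all genes, in either direction, were 11.9% and 21.6%. Summed over the list they had 348, 344 and 341 CPM in KO testis, against 421, 360.2 and 327 CPM in WT testis, which overlapped, with WT 3 the lowest. Cfd, which encodes adipsin, had 2.83, 0.905 and 1.36 FPKM in KO testis, against 11.7, 5.43 and 22.6 FPKM in WT testis. The log2 fold change was -2.81 (SE 0.56, unadjusted p = 0.00139), or -2.31 (unadjusted p = 0.00345) without WT 3. Fabp4, a fatty acid binding protein, had 1.21, 0.513 and 0.533 FPKM in the KO, against 3.11, 1.48 and 5.16 FPKM in WT. Car3, a carbonic anhydrase, had 1.03, 0.610 and 1.005 FPKM in the KO, against 4.89, 1.63 and 9.61 FPKM in WT. Cidec, a lipid droplet protein, had 0.642, 0.278 and 0.393 FPKM in the KO, against 2.04, 0.837 and 1.98 FPKM in WT. In all 4 genes WT 2 was the lowest WT library. The adjusted limma p was 0.871 for each. The list had 8 of 9 below 0 and a median of -0.59, or 9 and -0.31 without WT 3, and Adipoq, which encodes the fat hormone adiponectin, overlapped at 15.4, 11.3 and 16.3 FPKM in the KO, against 15.2, 14.8 and 13.2 FPKM in WT.

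The remaining lists held few genes with an unadjusted p under 0.05. Hepatocyte genes had a median of 0.01 over 8 genes, or 0.18 without WT 3, and neuron and glia genes 0.08 with 8 of 8 above 0. The neuron and glia list had 4 of 7 above 0 and a median of 0.04 without WT 3, and 4 of 8 and 0.01 on the library total. Gfap, the intermediate filament of astrocytes, had 3.03, 0.989 and 2.66 FPKM in KO testis, against 0.750, 0.534 and 0.456 FPKM in WT testis. Its groups were separate (log2 fold change 1.66, unadjusted p = 0.00430, and 0.0158 without WT 3). Immediate early and stress genes had a median of 0.04, proliferation genes 0.00 and cholesterol genes 0.08, or 0.01 on the library total. With the library total as the scale the medians of the hepatocyte, stress and proliferation lists were -0.06, -0.04 and -0.08. Targets of p53 had a median of -0.16, or -0.01 without WT 3. In the 35 lists 0 members were called by limma in either fit. On the deposited scale the medians of 7 lists, as rounded here, turned sign without WT 3.

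**Figure D4:**
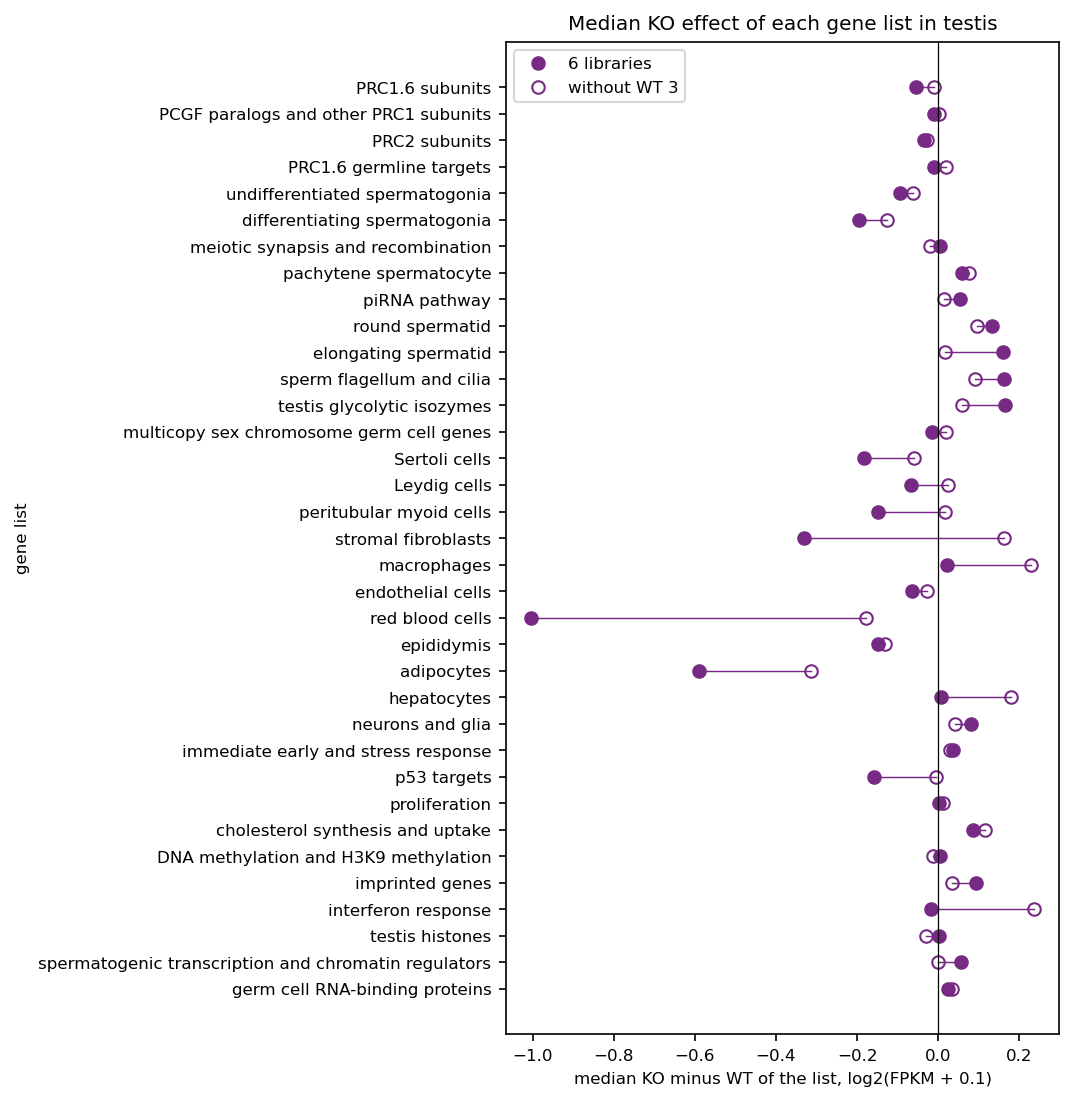
Median KO minus WT difference in log2(FPKM + 0.1) of each of 35 gene lists, with 6 libraries (filled) and without WT 3 (open). Stromal fibroblasts are at -0.33 with 6 libraries and 0.16 without WT 3, red blood cells at -1.004 and -0.18, and PRC1.6 germline targets at -0.01 and 0.02.

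**Figure D5:**
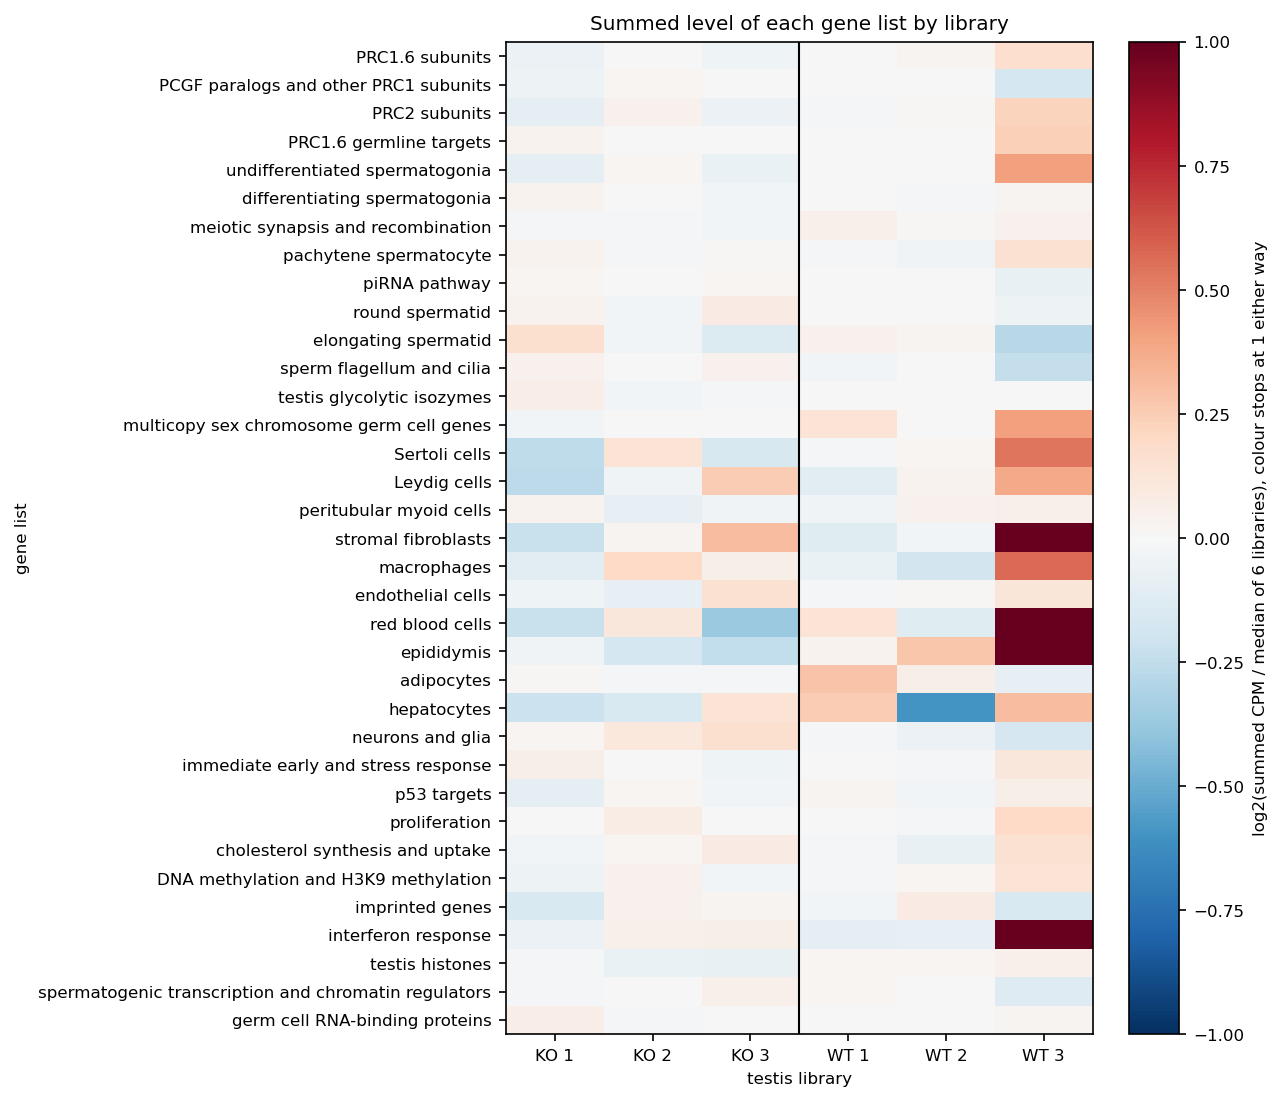
Summed level of each gene list in each testis library, as log2 of its CPM over the median of the 6 libraries, with KO columns left of WT columns and colour ending at 1 in either direction. WT 3 is the highest library for stromal fibroblast (594 CPM), red blood cell (145 CPM) and epididymis genes (470 CPM).

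Among genes of low p that were not called, some lie on chromosome 19 with Pcgf6, in both directions. Kif11, a spindle motor protein which lies 9.66 Mb from Pcgf6, had 5.39, 4.88 and 5.05 FPKM in KO testis, against 8.89, 8.22 and 8.02 FPKM in WT testis. The groups were separate, with a log2 fold change of -0.70 (SE 0.10, adjusted p = 0.710 in limma), and -0.73 without WT 3. Rnls, which encodes renalase, had 41.9, 42.2 and 38.2 FPKM in the KO, against 53.5, 56.7 and 63.8 FPKM in WT, also separate (log2 fold change -0.51). Ide, the insulin-degrading enzyme, was called in brain and had 40.9, 37.2 and 38.9 FPKM in KO testis, against 53.1, 51.3 and 43.5 FPKM in WT testis. Its testis log2 fold change was -0.33 (unadjusted p = 0.0122), or -0.42 (unadjusted p = 0.000602) without WT 3, and in brain -0.67 (adjusted p = 0.0180 in limma). In liver it was -0.68 and not called (adjusted p = 0.145 in limma). Fgfbp3, a fibroblast growth factor binding protein named after its values were seen, had 0.224, 0.404 and 0.252 FPKM in the KO, against 0.728, 0.635 and 0.832 FPKM in WT (log2 fold change -1.10, unadjusted p = 0.00144). It was lower and separate in brain and liver too, at log2 fold changes of -0.71 and -0.79, and not called. Those of Kif11 in brain and liver were -0.39 and 0.01, and those of Rnls -0.12 and 0.25. Higher genes of the chromosome with a low p were 1500015L24Rik, Gm9806 and Cyp26c1, a retinoic acid hydroxylase, with log2 fold changes of 1.38, 0.71 and 0.57. Within 1 Mb of Pcgf6, 42 genes were tested and 0 called by limma, 1 of them (Cfap58) with an unadjusted p under 0.05, and their median was 0.02. On chromosome 19 as a whole 4.37% of 641 genes had an unadjusted p under 0.05, beside 4.13% of all genes.

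On chromosome 6, 1700012J15Rik (7766394 to 7777681) and Mios (8209222 to 8236274) had the lowest p values with 6 libraries among higher genes with a mean of at least 1 FPKM and no overlap. Without WT 3 they ranked 4 and 2, behind 1700042D02Rik. Mios, a subunit of the GATOR2 complex of amino acid signalling, had 8.82, 8.42 and 9.08 FPKM in KO testis, against 6.03, 6.04 and 6.09 FPKM in WT testis. The lincRNA 1700012J15Rik had 20.8, 16.5 and 21.8 FPKM in the KO, against 10.8, 11.5 and 11.6 FPKM in WT. Both were separate between genotypes. Log2 fold changes were 0.53 for Mios and 0.79 for 1700012J15Rik (adjusted p = 0.871 for each in limma), and 0.53 and 0.81 without WT 3. In brain Mios had 2.83, 2.75 and 3.13 FPKM in the KO, against 2.48, 2.77 and 2.87 FPKM in WT, with overlap. In liver Mios had 2.86, 2.49 and 2.94 FPKM in the KO, against 2.17, 1.96 and 2.18 FPKM in WT. Its liver groups were separate and higher in the KO, as in testis, at a log2 fold change of 0.37. Mios was not called in brain or liver.

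Other genes of lowest p were largely noncoding. Those higher in the KO without overlap, none called, were Gm21769, Snrpert, Gm43280, Gm12974, Gm44911, Hist2h2ac, Gm12344 and AC134528.1, with log2 fold changes from 0.59 at Gm12974 to 1.58 at Snrpert. The processed pseudogene Snrpert had 4.59, 6.55 and 8.86 FPKM in KO testis, against 2.24, 1.53 and 2.64 FPKM in WT testis. The core histone gene Hist2h2ac had 2.55, 2.45 and 2.42 FPKM in the KO, against 1.68, 1.57 and 1.42 FPKM in WT. Those lower were 1700006P03Rik, Gm45680, Gm44214 and Hp, beside the genes above. Hp, which encodes haptoglobin, had 0.990, 1.26 and 1.06 FPKM in the KO, against 3.70, 2.44 and 6.60 FPKM in WT (log2 fold change -1.74, unadjusted p = 0.00106). The fit without WT 3 added 1700042D02Rik, 1700071G01Rik, Gm5793 and Ctss among higher genes, and Dapl1, 1700017L05Rik and AC160980.2 among lower ones. The genotypes did not overlap at 11.9% of all tested genes, and at 21.6% without WT 3. By gene class, an unadjusted p under 0.05 was found for 2.94% of protein-coding genes, 7.82% of lincRNAs and 7.56% of processed pseudogenes.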

How the data were processed

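RNA from testis was measured in 6 libraries, 3 PCGF6 KO and 3 WT, made with poly-T purification and the NEBNext Ultra kit, which does not mark strand, per the labels' protocols. The deposited values are FPKM per gene for 52636 genes, which the authors made from Illumina HiSeq reads. The submitters' processing notes name HISAT2 2.0.5, featureCounts 1.5.0-p3, DESeq2 1.16.1 and mm10, without saying how reads that match several genes were counted. FPKM times gene length gave whole multiples of 1 read for 100% of values within 0.01 reads, from which reads per gene and depth were computed.

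Log2(FPKM + 0.1) was, where 3 or more libraries held 10 or more reads, tested with limma 3.58.1 (trend, Benjamini-Hochberg adjustment over all genes tested) in R 4.3.3, with all libraries and without WT 3. Differences between tissues were interaction terms. The method was tested on simulated data. Transcripts were aligned with BLAST 2.17.0. Other steps used Python 3.11.15 with numpy 2.4.6, pandas 2.3.3 and scipy 1.17.1, and figures matplotlib 3.10.9.

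The comparison and the 35 gene lists were chosen with earlier results of these data known. Of 529 list symbols 525 matched directly, 3 by a synonym and 1 did not. Named genes were Pcgf6, called genes, for either direction the 10 genes of lowest p whose mean was 1 FPKM or more and whose genotypes did not overlap, and the 2 most abundant members of each list. Genes called in liver or brain were named as well. Genes named for other reasons were picked after their values were seen. Replicate numbers were not taken as pairs, since same-numbered libraries deviated together with correlations of 0.085, -0.065 and 0.090. Same-genotype libraries differed beyond counting noise, so none was taken as a repeat deposit. Alternatives covered the pseudocount, the filter, the scaling, voom, quality weights, a fit over all 18 libraries, a replicate block and leaving out each library.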

Additional observations from a re-analysis of the deposited data

Results flagged for a closer look

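The KO effect in testis differed from that in another tissue at 13 genes, by the interaction term in limma. All values are the KO effect in testis minus that in the other tissue, on the log2(FPKM + 0.1) scale. Against brain, the piRNA pathway gene Mael had -5.59 and the piRNA methyltransferase gene Henmt1 -1.98. The synaptonemal complex gene Syce1 had -2.49, the mitochondrial carrier gene Slc25a31 -3.72 and the RNA-binding protein gene Rbm46 -1.64. The X-linked genes had -4.69 at Gm4779, -4.99 at 8030474K03Rik, -4.24 at Xlr4b and -3.97 at Xlr4c. Rps4l had 2.49 and was the exception in sign. Against liver, Mael had -7.07, Syce1 -4.20, Slc25a31 -4.85, C1qtnf4 -2.83, the helicase gene Ddx4 -2.58 and the meiotic gene Tex11 -2.01. The adjusted limma p values of these differences ran from 5.90e-08 to 0.0195. Genes nearly absent in WT brain or liver, such as Mael, entered these tests only through reads of the KO libraries there.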

How the results depend on the processing

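The number of genes called in testis, 1 with 6 libraries, was 0 with no filter on reads (1514 genes at an unadjusted p under 0.05), 2 with at least 10 reads in every library, 2 with limma voom, 5 with voom and quality weights, 2 with limma trend and quality weights, and 36 in a fit over all 18 libraries. Leaving out 1 library gave 0 to 3 genes: 0 without WT 1, KO 1 or KO 2 (1246, 651 and 885 genes at an unadjusted p under 0.05), 3 without WT 2 (Gm5815, Tomm20l and 1700083H02Rik) and 1 without KO 3, which was Gm11894. Without WT 3 the count of 1 was 0 with no filter, 2 with the library total as the scale and 3 with voom. Pcgf6 was called at a log2 fold change of -1.06 with at least 10 reads in every library, -1.07 with voom, -1.05 with voom and quality weights, -1.03 with trend and quality weights and -1.06 over all 18 libraries, and ranged from -1.11 to -1.02 when 1 library was left out. With a replicate block the count of called genes was 1 and Pcgf6 was at -1.06 (adjusted p = 0.707 in limma); the numbers are not known to pair the libraries. Among single genes, Gm5815 lost its call without WT 1 or any 1 KO library and with no filter on reads, with and without WT 3, and C1qtnf4 lost its difference from liver without WT 3. The differences of Rbm46, Ddx4 and Tex11 were -0.51, -0.57 and -0.44 with a pseudocount of 1 and were not called, nor was Tex11 on the library total (-1.69). Calls gained were those of 1700012J15Rik, Mios, Gm43280, AC134528.1, 1700006P03Rik and Crisp1 over all 18 libraries, and of Mios and Kif11 with voom and quality weights. The fit over all 18 libraries takes 1 spread per gene from all tissues, also from tissues that lack the gene. In brain and liver 1700012J15Rik had 0 reads, and Crisp1 had a log2 range of 0.34 in brain and 0 in liver. The calls of that fit carry this limit, and the direction of Crisp1 was fixed by the filter. Without WT 3, Kif11 was called with voom, and Pcgf6 with voom and on the library total. No single-gene value turned sign under these alternatives. The causes were not tested. Genes that 3 libraries did not cover with 10 reads were not tested at this depth.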

Other observations

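Several genes were present in some testis libraries and nearly absent in others. Among testis libraries 52 genes ranged over at least 16-fold between high and low libraries, and 20 of them are pseudogenes. In liver and brain a lower limit was used, a log2 range of at least 2, beside 4 in testis. By that limit 20 of these also split in liver, 11 into libraries of the same genotype and number. In brain 16 split, and 9 of them did so into the same libraries. The labels do not say which organs came from 1 animal, and the tests between tissues took libraries as independent. Gm8730, a processed pseudogene, had 1.76, 286 and 144 FPKM in KO testis, against 137, 143 and 168 FPKM in WT testis, and KO 1 was the low library. In liver it had 1.75, 248 and 129.7 FPKM in KO liver, against 129, 127 and 136 FPKM in WT liver, again with KO 1 low. The pseudogene Rps3a2 had 0.725, 0.351 and 29.2 FPKM in KO testis, against 0.788, 0.441 and 43.8 FPKM in WT testis, high in KO 3 and WT 3. Copies of ribosomal protein genes share sequence, so the source of these reads is uncertain. The X-linked gene Gm14632 had 0.664, 12.005 and 36.4 FPKM in KO testis, against 0.0481, 0.180 and 0.237 FPKM in WT testis, without overlap but with a wide spread in the KO (log2 fold change 4.85, unadjusted p = 0.00612, adjusted p = 0.871 in limma). Gm14632 was near 0 in WT, so it may have passed the read filter only through the KO libraries. Its direction and p value carry that limit.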
